A study of Mus musculus with 8 samples.

Results

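Cycling macrophages and monocytes of the mouse heart were taken from 2 droplet libraries as the barcodes that carried RNA of mitotic genes together with RNA of macrophages or monocytes. A barcode had to have at least 200 genes and at most 30% mitochondrial unique molecular identifiers (UMIs, 1 for each captured RNA molecule), and at least 4 UMIs in all of Mki67, Top2a, Birc5, Cdk1 and Ccnb2. Lyz2, or C1qa, C1qb and C1qc together, had to reach 0.2% of its UMIs. Barcodes with 2% or more of S100a8 and S100a9 (neutrophils), 0.15% or more of Dcn and Col3a1 (fibroblasts) or more than 1 UMI of Cd79a, Cd3e and Ncr1 (lymphocytes) were left out. This rule found 111 cells among 20159 barcodes, which were 0.551% of all barcodes and 1.88% of the 5918 macrophages and monocytes that passed the rest of the rule. They were divided at 0.2% of UMIs from the 3 complement C1q genes into 108 C1q+ cells (macrophages) and 3 C1q- cells.

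The mice were male C57BL/6 animals of 10 to 12 weeks. Ischemia-reperfusion (IR) was made by tying the left anterior descending coronary artery for 30 min and releasing it, and left ventricles were digested into cell suspensions 6 h after IR or sham operation. Each condition was deposited as 1 pooled matrix, although 4 samples are listed for it, and no barcode names its sample. The samples carry the times 0 h and 6 h. The libraries are called the 0 h and the 6 h library here, because whether 0 h stands for the sham operation is not stated in the labels. With 1 library per condition there are no replicates, so no test between conditions was possible and no p value is given, and intervals are exact 95% intervals that cover counting error only.

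Macrophages of the adult heart are maintained in part by local division of resident cells and in part by monocytes from the blood, and ischemia shifts the balance between them. A dividing cell first licenses and copies its DNA in S phase, with the MCM helicase, the sliding clamp PCNA and enzymes of nucleotide synthesis, and then builds a spindle in G2 and M phase under cyclin B and CDK1. Genes of the first group are mostly switched on by E2F factors, and genes of the second group by the MYB-MuvB and FOXM1 complexes, which act through CHR elements of promoters. CCAAT boxes are common in promoters of both groups.

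The 0 h library held 58653308 UMIs in 11620 barcodes, and 3754 of them were gated macrophages and monocytes (3363 C1q+ and 391 C1q-). It gave 95 cycling cells, of which 94 were C1q+. The 6 h library held 75033226 UMIs in 8539 barcodes, and 2164 of them were gated (1043 C1q+ and 1121 C1q-). It gave 16 cycling cells, of which 14 were C1q+. The libraries share 30 barcode sequences, and 1 cycling cell has such a barcode. Cells are not replicates, and all cells of a library come from the same pool.

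The 5 chosen genes encode the proliferation antigen Ki-67 (Mki67, chr7:135689784-135716361), DNA topoisomerase II alpha (Top2a, chr11:98992943-99024189), survivin of the chromosomal passenger complex (Birc5, chr11:117849251-117855743), the mitotic kinase CDK1 (Cdk1, chr10:69335146-69352938) and cyclin B2 (Ccnb2, chr9:70407692-70421547; all GRCm38). In the 94 C1q+ cells at 0 h, Birc5 was found in 83, Top2a in 81, Mki67 in 79, Cdk1 in 75 and Ccnb2 in 59, and 39 cells held all 5. In the 14 C1q+ cells at 6 h, Mki67 and Birc5 were each found in 13, Ccnb2 in 12, Top2a in 10 and Cdk1 in 9, and 5 cells held all 5. These values chose the cells and are given as a description. Just inside the threshold, 3 C1q+ cells at 0 h and 0 at 6 h had 4 UMIs. Just outside it, 11 and 2 had 3 UMIs.

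The label was then compared with genes that the rule did not read. The G2/M list (46 genes, without the 5 chosen genes) made up 66.2 of 10000 UMIs in the median cycling C1q+ cell at 0 h (range 12.3 to 203) and 6.42 in the other C1q+ cells. At 6 h the medians were 68.7 (range 7.33 to 218) and 6.09. Cycling cells whose S and G2/M sums both lay at or below the 95th percentile of the other cells of their class numbered 1 of 94 among C1q+ cells at 0 h and 2 of 14 at 6 h. The S sum lay at or below that percentile in 32 of 94 and 8 of 14 cells, and the G2/M sum in 4 and 2. In the C1q+ cells, G2/M genes outside the rule thus went with the label, and S genes did so in part of the cells.

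In the C1q- cells, phase genes outside the rule went with the label in 1 of 3. The C1q- cell of the 0 h library had 29170 UMIs, of which 131 came from S genes and 100 from G2/M genes, and its MHC class II genes made up 423 of 10000 UMIs. Of its 76 UMIs of classical monocyte genes, 1 each came from Ly6c2 and Plac8, 9 from Ccr2 and 61 from Fn1. The first C1q- cell of the 6 h library had 13895 UMIs with 5 of Mki67 and 1 of Top2a. The second had 28350 UMIs and passed on 15 UMIs of Top2a alone. Their G2/M genes gave 7 and 17 UMIs, and 5.04 per 10000 UMIs in the first, beside a median of 7.05 per 10000 in the other C1q- cells of that library. The cell at 0 h held 32 of the 42 S genes and 27 of the 46 G2/M genes, but its classical monocyte genes made up 26.1 of 10000 UMIs, beside a median of 145 in the other C1q- cells, and its MHC class II genes lay above their median of 8.66. No C1q- cell thus showed both phase genes above the other cells and summed classical monocyte genes at their level. In the C1q- cells the data go against the monocyte part of the name, and the results below are about the C1q+ macrophages unless stated.

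Cycling cells were the smaller share of C1q+ macrophages in the 6 h library by the rule as chosen. At 0 h 94 of 3363 C1q+ cells were cycling, or 2.80% (2.26 to 3.41). At 6 h 14 of 1043 were cycling, or 1.34% (0.736 to 2.24). These intervals did not overlap, but they did when cells were thinned to 2000 UMIs and called at 2 UMIs, which gave 2.27% (1.79 to 2.85) at 0 h and 1.35% (0.720 to 2.30) at 6 h, leaving out 154 and 79 shallower cells.

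Under a pair of other rules the shares of the libraries lay closer together. With at most 2500 genes per cell, the limit of the study, 22 of 3052 cells (0.721%) at 0 h and 3 of 446 (0.673%) at 6 h were cycling. With Cenpf, Tpx2, Nusap1, Ube2c and Kif11 in place of the 5 genes, 55 cells (1.64%, 1.23 to 2.12) at 0 h and 13 cells (1.25%, 0.665 to 2.12) at 6 h passed, and 54 of those 55 and 12 of those 13 were cycling cells by the first rule too. The share of cells called cycling was higher in deeper cells. In C1q+ cells under 5000 UMIs it was 0.437% of 1832 cells at 0 h and 0.633% of 158 cells at 6 h. From 5000 to 10000 UMIs it was 2.99% (2.14 to 4.05) of 1338 and 0.746% (0.154 to 2.17) of 402. From 10000 to 20000 UMIs it was 23.1% (17.2 to 29.9) of 182 and 1.38% (0.509 to 2.98) of 434. From 20000 UMIs up it was 36.4% (10.9 to 69.2) of 11 and 8.16% (2.27 to 19.6) of 49.

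**Figure D1:**
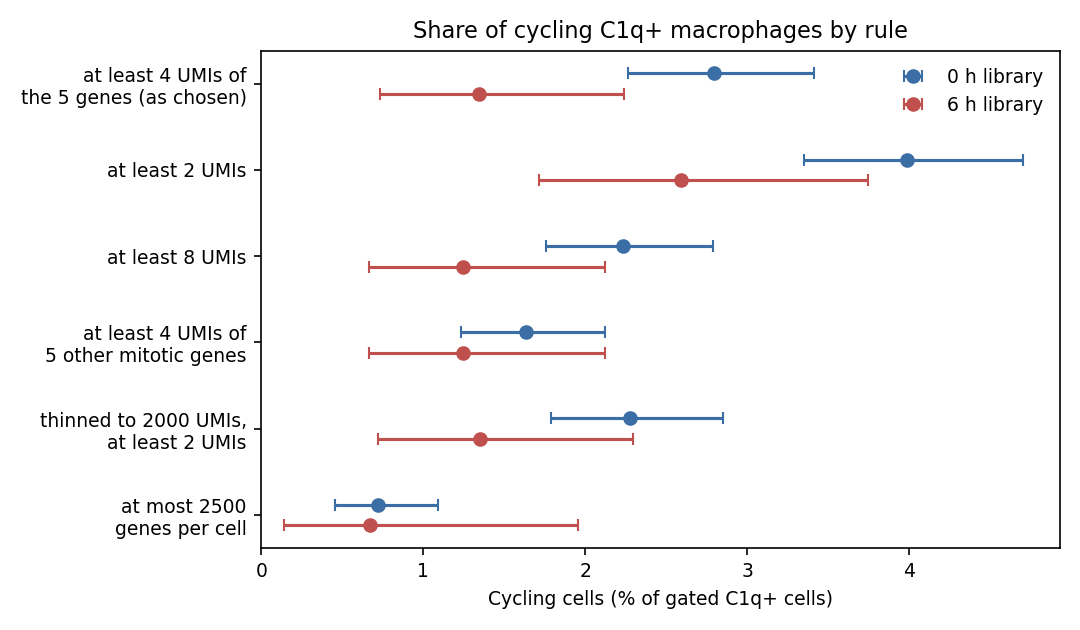
Cycling cells as a percent of gated C1q+ macrophages (x axis) under the chosen rule and 5 other rules (y axis), in the 0 h and 6 h libraries. Points are shares and bars are exact 95% intervals for counting error only; the shares are 2.80% and 1.34% under the chosen rule, and 0.721% and 0.673% with at most 2500 genes per cell.

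Cycling C1q+ cells were deep cells. Their median was 9933.5 UMIs at 0 h (range 2859 to 33079), against 4736 in the other C1q+ cells, and 15948 at 6 h (range 2655 to 40546), against 9612. More than 2500 genes were detected in 76.6% of cycling cells at 0 h and in 7.31% of the others, and in 78.6% and 56.9% at 6 h. Of all 111 cycling cells, 86 would be lost by the 2500-gene limit. Doublets were not called, so the part of cell pairs in these values was not tested. Outside the macrophages, the threshold was passed by 0.825% of 1333 B cells at 0 h (median 2721 UMIs), 0.135% of 3709 fibroblasts (median 5327 UMIs) and 0.350% of 286 neutrophils (median 1913.5 UMIs). At 6 h these shares were 0.531% of 753 B cells, 0.137% of 1457 fibroblasts and 0 of 2369 neutrophils, for which the exact upper limit is 0.156%. In the C1q- gate, 1 of 391 cells (0.256%) at 0 h and 2 of 1121 cells (0.178%) at 6 h passed. Outside the macrophage and monocyte gate 59 and 11 further barcodes passed the threshold.

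The 2 libraries differed in the phase genes of their cycling macrophages. A cell was put on the S side when its share of all S list UMIs exceeded its share of all G2/M list UMIs. On the S side were 42 of 94 cells at 0 h (44.7%, 34.4 to 55.3) and 3 of 14 at 6 h (21.4%, 4.66 to 50.8). The intervals overlap, and with 2 UMIs as the threshold for a cycling cell the shares were 51.5% and 48.1%. The S list (42 genes) made up a median of 24.2 of 10000 UMIs at 0 h (range 0 to 61.5) and 8.45 at 6 h (range 2.74 to 22.3). Of the cells at 0 h, 51 of 94 lay above the highest cell at 6 h, and 0 of 14 cells at 6 h lay above the median at 0 h. The G2/M list did not separate the libraries, since 7 of 14 cells at 6 h lay above the median at 0 h. Among cells of 5000 to 20000 UMIs, a limit added after the data were seen, the S medians were 24.8 (82 cells) and 7.36 (9 cells).

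**Figure D2:**
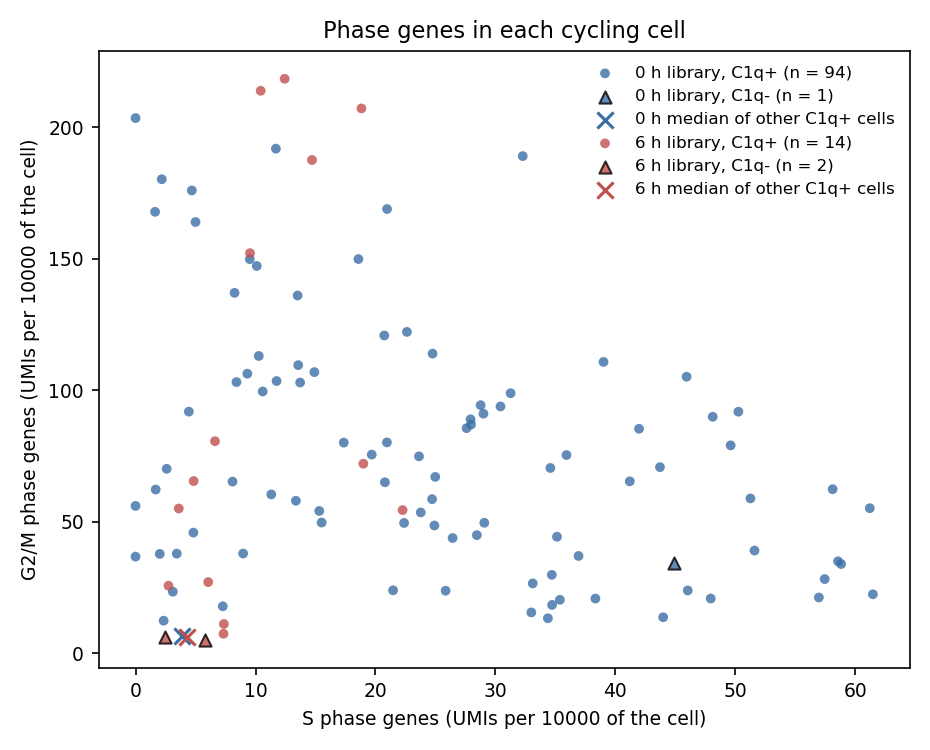
S phase list UMIs (x axis) and G2/M phase list UMIs (y axis), both per 10000 UMIs of the cell, for each of the 111 cycling cells, with crosses at the medians of the other C1q+ cells. Cells at 0 h extend along the S axis to 61.5, cells at 6 h stay at or below 22.3, and the 2 C1q- cells at 6 h lie beside the crosses.

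Within the 0 h library, the 42 cells on the S side had a median of 10150 UMIs and the 52 on the G2/M side 9751. The classes were cut from a score and are ranges rather than cell types. Their phase genes follow from the cut and are not compared. MHC class II genes had medians of 142 and 71.2, and type I interferon genes 33.9 and 43.2.

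Gene by gene, genes of DNA replication were lower in cycling cells at 6 h, among them the helicase. Levels here are UMIs per 1000000 UMIs of the summed cells (CPM), compared for 1 gene between groups. Mcm6, a subunit of the MCM2-7 helicase, was at 122 CPM in cycling cells at 0 h and 8.25 CPM at 6 h, where 1 of 14 cells held it against 47 of 94 (log2 ratio -3.89, from 2 UMIs at 6 h). Mcm5 was at 124 and 20.6 CPM (log2 ratio -2.59, -4.23 to -1.33), and Uhrf1, which carries DNA methylation through replication, at 75.4 and 8.25 CPM (log2 ratio -3.19, -6.26 to -1.29). Of the 33 genes of replication licensing and DNA synthesis, 7 had at least 20 expected UMIs in the smaller group, and these 7 were past 2-fold lower at 6 h, beside 14.6% of all genes under that filter. Since most UMIs are from 0 h, the filter passes genes that are high there, and the sum over the whole list was 2170 CPM at 0 h and 545 CPM at 6 h (log2 ratio -1.99). In the other C1q+ cells the same sum was 395 and 279 CPM (log2 ratio -0.50).

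The libraries lay closer together in nucleotide synthesis, where the log2 ratio of the sum was -0.71. Past 2-fold lower were 5 of 13 genes with at least 20 UMIs, and 3 of 6 under the filter on expected UMIs, beside 14.6% of all genes. Rrm1, the large subunit of ribonucleotide reductase, was at 92.2 and 90.8 CPM in cycling cells (log2 ratio -0.02, -0.76 to 0.66), and Tyms, thymidylate synthase, at 99.2 and 61.9 CPM (log2 ratio -0.68, -1.57 to 0.11). Others of the list were farther apart, among them Tk1 (log2 ratio -2.58) and Dut (log2 ratio -1.86). E2f1, an activator of S genes, was at 57.5 CPM in 36 of 94 cells at 0 h and had 0 UMIs in the 14 cells at 6 h. On the mitotic side, Hmmr, a spindle protein, was at 78.3 CPM at 0 h and 202 CPM at 6 h (log2 ratio 1.37, 0.82 to 1.90), and was found in 42 of 94 and 11 of 14 cells. Cdc20, the activator of the anaphase-promoting complex, was at 134 and 227 CPM (log2 ratio 0.76, 0.28 to 1.22), and Ccnb1, cyclin B1, at 63.5 and 136 CPM (log2 ratio 1.10, 0.45 to 1.73). The G2/M list as a sum was 6997 CPM at 0 h and 7338 CPM at 6 h (log2 ratio 0.07, -0.01 to 0.14).

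Promoters are shown for 3 replication genes that were lower at 6 h and for 4 mitotic genes, whose program did not differ as a sum, to set the elements of both programs side by side. Dtl, which marks replication factors for breakdown, was at 27.8 and 4.13 CPM, and Kif11, a spindle motor, at 77.4 and 74.3 CPM. The sequences are the 120 bases before the RefSeq transcription start (GRCm38.p6), written 5′ to 3′ on the strand of the gene. Capitals mark CCAAT boxes (CCAAT or ATTGG), the CHR (TTTGAA or TTCAAA) and E2F sites (TTCCCGC or its reverse GCGGGAA, and TTGGCGC or its reverse GCGCCAA).
Mcm6, chr1:128359706-128359825, minus strand: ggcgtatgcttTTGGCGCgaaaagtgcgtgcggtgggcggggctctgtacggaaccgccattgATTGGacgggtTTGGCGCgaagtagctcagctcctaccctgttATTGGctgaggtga
Mcm5, chr8:75109389-75109508, plus strand: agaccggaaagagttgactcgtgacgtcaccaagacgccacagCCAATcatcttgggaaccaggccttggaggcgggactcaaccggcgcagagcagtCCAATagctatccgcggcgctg
Dtl, chr1:191575545-191575664, minus strand: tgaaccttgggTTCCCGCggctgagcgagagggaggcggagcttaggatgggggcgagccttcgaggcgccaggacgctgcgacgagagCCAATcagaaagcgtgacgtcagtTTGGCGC
Hmmr, chr11:40733438-40733557, minus strand: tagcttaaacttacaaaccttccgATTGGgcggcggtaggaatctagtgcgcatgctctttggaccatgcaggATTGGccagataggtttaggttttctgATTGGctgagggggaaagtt
Ccnb2, chr9:70421555-70421674, minus strand: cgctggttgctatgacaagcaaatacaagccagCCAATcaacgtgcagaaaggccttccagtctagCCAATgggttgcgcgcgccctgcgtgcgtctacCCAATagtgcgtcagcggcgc
Cdc20, chr4:118437344-118437463, minus strand: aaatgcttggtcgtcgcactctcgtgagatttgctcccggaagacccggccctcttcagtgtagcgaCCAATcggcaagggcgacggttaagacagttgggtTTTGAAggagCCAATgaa
Kif11, chr19:37376262-37376381, plus strand: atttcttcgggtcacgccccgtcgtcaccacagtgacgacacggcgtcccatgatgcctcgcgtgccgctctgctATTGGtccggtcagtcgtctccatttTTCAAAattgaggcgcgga

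In the 300 bases around the start (250 before and 50 after) of all 27025 genes in the table, 20.2% held a CHR, 41.1% a CCAAT box and 7.79% an E2F site, on either strand. Of the 46 G2/M genes 40 matched, and 29 of them (72.5%) held a CHR, 30 (75%) a CCAAT box and 5 (12.5%) an E2F site. Of the 42 S genes 30 matched, and 6 (20%) held a CHR, 21 (70%) a CCAAT box and 17 (56.7%) an E2F site. Some CCAAT boxes and E2F letters can share bases, and a match of letters is a description, not a bound site.

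Compared with the other C1q+ macrophages, cycling cells carried a broad cell-cycle program in both libraries. Over all genes with at least 20 UMIs expected in the smaller group, 318 of 4875 (6.52%) were past 2-fold at 0 h, 190 higher (3.9%) and 128 lower (2.63%). At 6 h 145 of 1646 (8.81%) were past 2-fold, 41 higher (2.49%) and 104 lower (6.32%). These cells were chosen on 5 mitotic genes, so the counts below are a description. At 0 h 33 of 33 replication genes with at least 20 UMIs were past 2-fold higher, as were 22 of 22 genes of condensin, kinetochore and centromere, 33 of 34 of spindle and cytokinesis and 17 of 18 of histones and chromatin. At 6 h these counts were 12 of 24, 13 of 13, 25 of 26 and 17 of 18. The expected-count filter passes few genes that are near 0 in the other cells, so only 8 replication genes at 0 h and 1 at 6 h entered the counts over all genes.

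Ube2c, the ubiquitin-conjugating enzyme of anaphase, was at 425 CPM in cycling cells and 1.06 CPM in the others at 0 h, and at 636 and 0.676 CPM at 6 h. Stmn1, which destabilizes microtubules, was at 1444 and 49.6 CPM at 0 h and at 520 and 18.3 CPM at 6 h. It was found in 92 of 94 and 12 of 14 cycling cells, against 15.7% and 13.2% of the others. Under the filter on expected UMIs, the chromatin protein gene Hmgb2 led the genes that were past 2-fold higher in both libraries. It was at 1870 and 202 CPM at 0 h and 1333 and 106 CPM at 6 h, and was found in 93 of 94 and 14 of 14 cycling cells. The histone variant gene H2afz was at 2174 and 540 CPM at 0 h and at 1436 and 342 CPM at 6 h. Of the other genes named by the same rule, Ube2s, Nucks1, Tuba1b, Arl6ip1 and Hmgb1 lay between 1.48 and 2.10 on the log2 scale in both libraries. Saa3, Fn1 and Thbs1 also belong to these 10 genes and came from few cells: without the Saa3 and Fn1 cells the log2 ratio of Thbs1 was 0.54 at 0 h and 0.73 at 6 h.

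**Figure D3:**
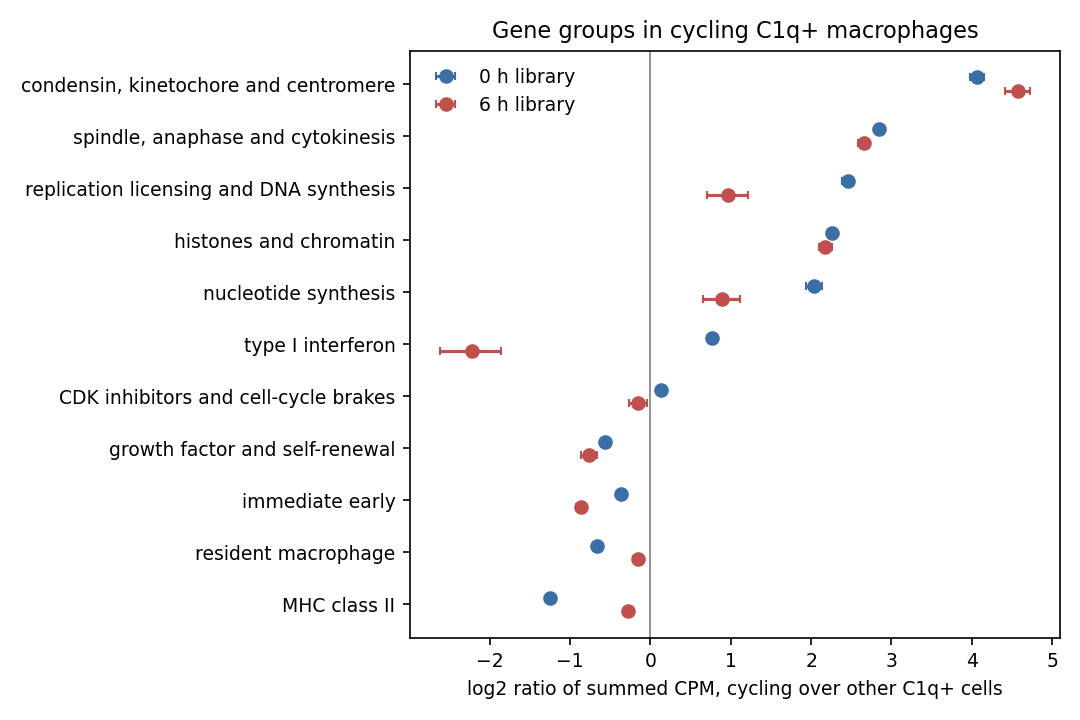
Log2 ratio of summed CPM (x axis) of cycling over other C1q+ cells for 11 gene groups (y axis), in the 0 h and 6 h libraries. Bars are exact 95% intervals for counting error only; the mitotic groups lie above 2.6 in both libraries, replication genes are at 2.46 at 0 h and 0.96 at 6 h, and type I interferon genes are at 0.77 at 0 h and -2.22 at 6 h.

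Of 14 cyclins and CDKs with at least 20 UMIs, 10 were past 2-fold higher in cycling cells at 0 h, and 3 of 7 under the filter on expected UMIs, beside 3.9% of all genes. Ccna2 (cyclin A2) was at 106 CPM in cycling cells and 0.411 CPM in the others at 0 h. Among the D-type cyclins, which act before S phase, Ccnd1 was at 344 and 264 CPM (log2 ratio 0.38) at 0 h and at 99.1 and 143 CPM (log2 ratio -0.53, -1.17 to 0.05) at 6 h. Ccnd2 was lower in cycling cells, at 102 and 157 CPM at 0 h and 70.2 and 212 CPM at 6 h, and Ccnd3 was higher, at 80.3 and 62.3 CPM at 0 h (log2 ratio 0.37, 0.02 to 0.69) and 111 and 42.3 CPM at 6 h (log2 ratio 1.40, 0.78 to 1.96). Cdkn1a, encoding the inhibitor p21, was at 1463 and 1190 CPM at 0 h (log2 ratio 0.30, 0.22 to 0.37) and at 710 and 943 CPM at 6 h (log2 ratio -0.41, -0.64 to -0.19). Cdkn2c, encoding the CDK4 and CDK6 inhibitor p18, was higher in cycling cells, at 111 and 15.7 CPM at 0 h and 107 and 11.7 CPM at 6 h. Of 17 inhibitors and brakes, 6 were past 2-fold higher and 1 lower at 0 h, and 5 and 4 at 6 h. Under the filter on expected UMIs 2 of 11 were higher and 1 lower at 0 h, beside 3.9% and 2.63% of all genes, and 0 of 4 higher and 2 lower at 6 h, beside 2.49% and 6.32%.

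Genes of antigen presentation were low in cycling macrophages at 0 h. The 7 MHC class II genes summed to 16599 CPM in cycling cells and 39361 CPM in the others (log2 ratio -1.25), and 5 of 7 were past 2-fold lower, beside 2.63% of all genes. Cd74, the invariant chain, was at 7664 and 17877 CPM. Per cell, the median was 84.4 of 10000 UMIs (range 1.04 to 892) against 432, and 10 of 94 cells were above the median of the others. Cells with at least 500 per 10000 were 8.51% of cycling and 44.7% of other cells. The size of this difference changed with depth: among cells of 5000 to 20000 UMIs the medians were 98.4 and 248, with 24 of 82 cells above, and the log2 ratio was -0.74 (-0.76 to -0.71). After thinning to 2000 UMIs, cells at or above the median of 57 UMIs of 4 class II genes were cycling in 0.915% (0.534 to 1.46) of 1857 cases and those below it in 4.14% (3.14 to 5.35) of 1352. At 6 h the sums were 12407 and 15034 CPM (log2 ratio -0.28, 6 of 14 cells above the median), and among cells of 5000 to 20000 UMIs the direction turned (log2 ratio 0.37, 9 cells), as it did without the Saa3 and Fn1 cells (log2 ratio 0.07, 12 cells).

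Of the 13 resident macrophage genes, 7 were past 2-fold lower at 0 h and 10 at 6 h. Under the filter on expected UMIs these were 7 of 13 and 8 of 10, beside 2.63% and 6.32% of all genes. Per cell the list had medians of 34.6 and 48.2 of 10000 UMIs at 0 h, with 33 of 94 cells above the median of the others. At 6 h the medians were 57.3 and 64.0, and after thinning to 2000 UMIs 13.5 and 13 UMIs, with 7 of 14 cells above. Lyve1, the hyaluronan receptor of perivascular macrophages, was at 50.6 CPM in cycling cells and 354 CPM in the others at 0 h (log2 ratio -2.81, -3.23 to -2.41), and was found in 11 of 94 cycling cells against 32.2% of the others. At 6 h it was at 268 and 609 CPM. In cells thinned to 2000 UMIs at 0 h, 2 of 776 Lyve1+ cells (0.258%, 0.0312 to 0.928) and 71 of 2433 cells without a Lyve1 UMI (2.92%, 2.29 to 3.67) were cycling. At 6 h the shares were 1.45% (0.474 to 3.36) and 1.29% (0.559 to 2.53). Folr2, a folate receptor, was at 216 and 592 CPM at 0 h and 153 and 402 CPM at 6 h. Timd4, a phosphatidylserine receptor, was at 95.2 and 87.6 CPM at 0 h (log2 ratio 0.12, -0.19 to 0.42), but without the cells that held at least 5 UMIs of both Saa3 and Fn1 (6 of the cycling cells) it was at 21.9 and 83.1 CPM (log2 ratio -1.93, -2.66 to -1.28). Pf4, a platelet chemokine that macrophages also make, was lower in cycling cells at 0 h (2500 and 3081 CPM) and higher at 6 h (5126 and 3075 CPM). Its direction at 6 h rested on 2 of 14 cells, since without the Saa3 and Fn1 cells it was at 2723 and 3072 CPM (log2 ratio -0.17), and the summed resident list moved from -0.15 to -0.54.

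Under the filter on expected UMIs, the genes past 2-fold lower in both libraries, besides Folr2, were led by Retnla. Retnla, a secreted protein of alternatively activated macrophages, was at 59.5 and 605 CPM at 0 h and 41.3 and 371 CPM at 6 h. It came from few cells in both classes, 8 of 94 cycling cells (44 of 60 UMIs in 1) and 7.37% of the others at 0 h, and 1 of 14 cycling cells at 6 h. Apoe, apolipoprotein E, was at 10766 and 24797 CPM at 0 h and 4928 and 17440 CPM at 6 h, and was found in all 94 and 14 cycling cells, of which 7 and 2 were above the median of the others. The others of these 10 were Ctla2a, Clec4n, 1810011O10Rik, Marcksl1, Tns1, Gas6 and Fcgrt. Gas6, the ligand of MerTK, was at 107 and 253 CPM at 0 h and 53.7 and 162 CPM at 6 h.

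**Figure D4:**
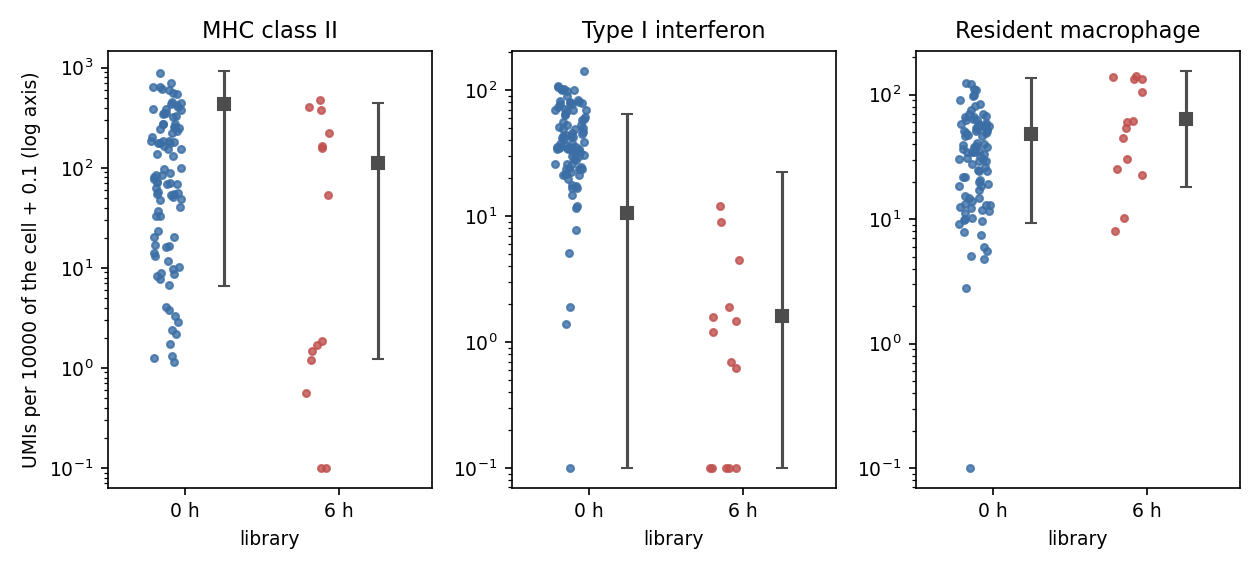
UMIs per 10000 of the cell, plus 0.1, on a log axis, for the MHC class II, type I interferon and resident macrophage lists in each cycling C1q+ cell (points, 94 at 0 h and 14 at 6 h), with the median and the 10th to 90th percentile of the other C1q+ cells (squares and bars). Interferon points lie above the square at 0 h in 89 of 94 cells, and 5 of 14 cells at 6 h are at 0.

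Among the 9 gene groups set side by side between the libraries, type I interferon genes differed most in cycling cells. At 0 h 11 of 12 genes were higher in cycling than in other C1q+ cells, but only Cxcl10 was past 2-fold higher (1150 and 475 CPM). Of all genes under the filter on expected UMIs, 3.9% were past 2-fold higher. The list made up a median of 37.1 of 10000 UMIs (range 0 to 143) against 10.5, and 89 of 94 cells were above the median of the others. This held in 76 of 82 cells of 5000 to 20000 UMIs (medians 37.9 and 15.7). Isg15, a ubiquitin-like interferon-induced protein, was at 1123 and 668 CPM and was found in 91 of 94 cycling cells against 57.2% of the others. Irf7, which amplifies interferon transcription, was at 502 and 335 CPM and was found in 84 of 94 against 47.3%. Ifnb1, interferon beta itself, went the other way, at 4.96 CPM in 3 of 94 cycling cells and 61.6 CPM in the others.

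At 6 h the interferon list was below that of the other C1q+ cells. Its sum was 239 CPM in cycling cells and 1119 CPM in the others, and 9 of 12 genes were past 2-fold lower. Under the filter on expected UMIs 3 of 3 were, beside 6.32% of all genes. Per cell the medians were closer, at 0.847 and 1.51 of 10000 UMIs, with a 90th percentile of 22.4 in the others. Of the cycling cells, 4 of 14 were above the median of the others and 5 had 0 UMIs of the list. Isg15 was at 20.6 and 128 CPM. Rsad2 (viperin) and Ifit3 had 0 UMIs in the 14 cells and were at 106 and 48.3 CPM in the others. The log2 ratio of the 6 h to the 0 h library was -4.14 in cycling cells (-4.54 to -3.76) and -1.14 in the other C1q+ cells (-1.17 to -1.11). A lower sum at 6 h was not particular to cycling cells, since the ratio in the other C1q- cells was -2.66 (-2.70 to -2.62). Per cell, the median of the other C1q+ cells was 10.5 of 10000 UMIs at 0 h and 1.51 at 6 h. Of the cycling cells, 88 of 94 at 0 h lay above the highest of the 14 at 6 h, which was at 12.0 per 10000 UMIs. In cycling C1q+ cells of 5000 to 20000 UMIs the ratio was -3.97 (-4.51 to -3.48). The difference of these ratios has no test, since each condition is 1 library.

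Between the libraries, 430 of 1777 genes (24.2%) were past 2-fold in cycling C1q+ cells, 170 higher at 6 h (9.57%) and 260 lower (14.6%), and 1783 of 10370 (17.2%) in the other C1q+ cells, 913 higher (8.8%) and 870 lower (8.39%). The genes with the highest ratios were named after their values were seen. Cxcl3, a neutrophil chemokine, was at 14.9 CPM at 0 h and 1420 CPM at 6 h in cycling cells, and was found in 3 of 94 and 10 of 14. In the other C1q+ cells it was at 14.7 and 486 CPM. Ptgs2 (cyclooxygenase-2) was at 13.9 and 603 CPM, found in 4 of 94 and 7 of 14 cells. Of Thbs1 (thrombospondin 1), at 204 and 1779 CPM, the highest cell at 6 h held 250 UMIs and the next 112. Of Hmox1 (heme oxygenase), at 98.2 and 945 CPM, 163 UMIs were in 1 cell and 18 in the next. Ctsl, a lysosomal protease, at 98.2 and 669 CPM, and Id3, an inhibitor of DNA binding, at 57.5 and 384 CPM, rank next among the genes past 2-fold in the same direction in the C1q- cells. Without the Saa3 and Fn1 cells, the log2 ratio of the libraries was 6.88 for Ptgs2, 1.76 for Ctsl and 3.94 for Id3, and 1.35 for the summed recruited and injury-state list. The lowest at 6 h were Irf7 (502 and 4.13 CPM), Isg15 and Oas3 (185 and 4.13 CPM), all induced by interferon, and hemoglobin genes. Of the 1113 Hbb-bs UMIs of cycling cells at 0 h, 1077 were in 1 cell.

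The immediate early list summed to 18271 and 23622 CPM at 0 h (log2 ratio -0.37, 0 of 11 past 2-fold) and to 11049 and 20114 CPM at 6 h (log2 ratio -0.86, 5 of 11 past 2-fold lower, all 11 passing the filter on expected UMIs, beside 6.32% of all genes, and 2 of 14 cells above the median). Atf3, the transcription factor of the study, was found in 90 of 94 cycling cells at 0 h at 1115 CPM, against 1132 CPM in the others (log2 ratio -0.02, -0.11 to 0.06). At 6 h it was found in 13 of 14 cells at 524 CPM, against 1315 CPM (log2 ratio -1.33, -1.59 to -1.07), with 3 of 14 above the median of the others. Fos was at 4629 and 5133 CPM at 0 h and 1523 and 2974 CPM at 6 h. Jun was at 1638 and 2337 CPM at 0 h and 838 and 2297 CPM at 6 h.

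**Figure D5:**
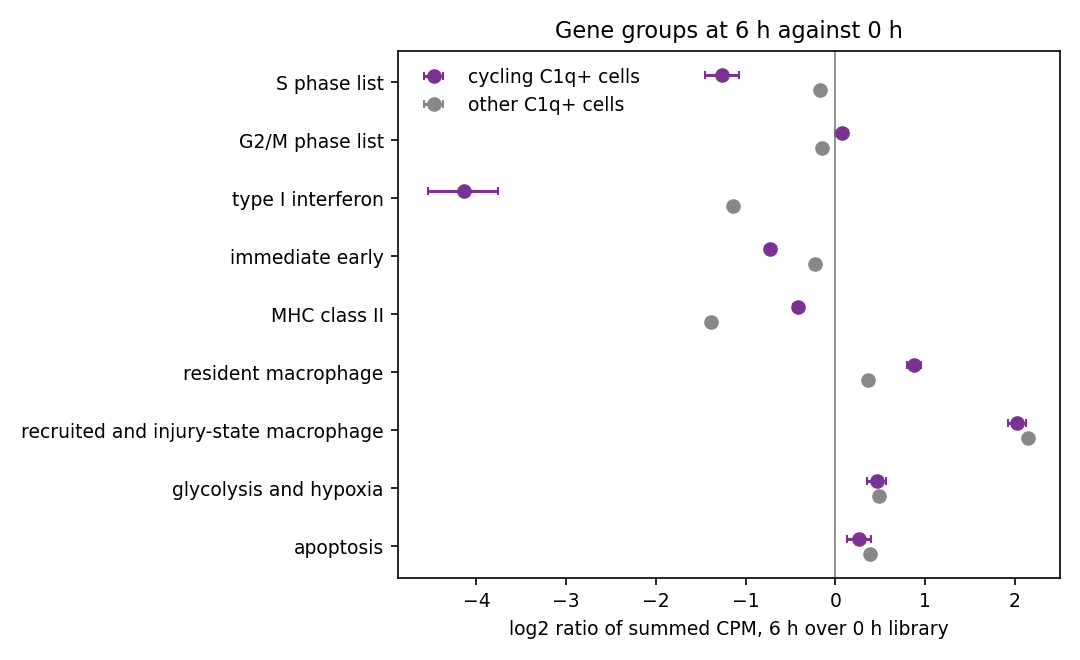
Log2 ratio of summed CPM at 6 h over 0 h (x axis) for 9 gene groups (y axis) in cycling and in other C1q+ cells. Bars are exact 95% intervals for counting error only; replication-linked S genes (-1.26 and -0.17) and interferon genes (-4.14 and -1.14) lie farther below 0 in cycling than in other cells, and recruited and injury-state genes lie above 0 in both (2.02 and 2.14).

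The study asked about survival and division of MerTK+ macrophages, and the shares are given for cells with Mertk and, beside them, with Ccr2. These shares do not measure what the study did. It gated on surface MerTK protein and used EdU for division, which was lower in MerTK+ macrophages after IR than after sham operation. Here a cell needed 1 Mertk UMI after thinning, which 204 cells had and 3005 lacked at 0 h. A cell without a UMI need not lack the protein. In cells thinned to 2000 UMIs at 0 h, 5 of 204 cells with a Mertk UMI (2.45%, 0.801 to 5.63) and 4 of 179 with a Ccr2 UMI (2.23%, 0.612 to 5.62) were cycling, against 2.26% and 2.28% of cells without them. At 6 h it was 0 of 105 (exact upper limit 3.45%) and 4 of 102 (3.92%, 1.08 to 9.74), against 1.51% and 1.04%. These intervals overlap. Mertk was at 24.8 CPM in cycling cells and 33.2 CPM in the others at 0 h and at 20.6 and 56.2 CPM at 6 h, and Ccr2 at 61.5 and 56.0 CPM at 0 h and at 293 and 121 CPM at 6 h, where 30 of its UMIs were in 1 cell. Igf1, a growth factor, was at 64.5 and 109 CPM at 0 h and 28.9 and 200 CPM at 6 h. Ifih1, an RNA sensor, was at 76.4 and 54.7 CPM at 0 h and 24.8 and 42.3 CPM at 6 h. Apaf1, of the apoptosome, was at 14.9 and 27.1 CPM at 0 h and 20.6 and 23.4 CPM at 6 h, or 10.7 and 23.2 CPM at 6 h without the Saa3 and Fn1 cells. Csf1r, the receptor for the growth factor of macrophages, was at 721 and 823 CPM at 0 h and 429 and 589 CPM at 6 h.

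A small set of cycling cells was picked out by 2 genes after its values were seen. At 0 h, 6 of 94 cells had at least 5 UMIs of both Saa3 (an acute-phase protein) and Fn1 (fibronectin). They held 99.1% of the Saa3 and 85.6% of the Fn1 UMIs of the cycling cells, which follows from the choice. Slpi, a secreted protease inhibitor, was not part of the choice, and they held 3165 of its 3167 UMIs. Of these, 5 of the 6 cells had 146 to 1550 each and 1 had 1. A cut on UMIs passes deep cells more readily, and their median was 21887 UMIs, against 9933.5 in all cycling C1q+ cells at 0 h. Their MHC class II median was 4.69 per 10000 UMIs, and they had 14246 to 33079 UMIs and C1q at 0.945 to 1.57% of UMIs. At 6 h 2 of 14 cells had both genes. Cells with both genes were 27 of 3269 (0.826%) other C1q+ cells at 0 h and 13 of 1029 (1.26%) at 6 h. Fn1 is one of the classical monocyte genes, whose sum was 1189 CPM in cycling and 580 CPM in other cells at 0 h (log2 ratio 1.03). Among cells of 5000 to 20000 UMIs that ratio was -0.70, and without the Saa3 and Fn1 cells 0.11. Ly6c2 itself was found in 6 of 94 cycling cells at 0 h and 1 of 14 at 6 h. The cell with the most at 0 h had 62 UMIs of Ly6c2, 101 of Plac8 and 91 of Fn1, with C1q at 0.422% of UMIs. Its phase genes gave 85 UMIs on the S list and 134 on the G2/M list. The next had 36 UMIs of Ly6c2 and 59 of Plac8. Spn (CD43) was higher in cycling cells in both libraries, at 67.4 and 13.9 CPM at 0 h and 66.0 and 13.3 CPM at 6 h. The 8 nonclassical monocyte genes lay closer together as a sum, at 439 and 362 CPM at 0 h (log2 ratio 0.28) and 322 and 336 CPM at 6 h (log2 ratio -0.06). Per cell, 54 of 94 cycling cells at 0 h and 13 of 14 at 6 h lay above the median of the others. After thinning, the means were 0.81 and 0.64 UMIs at 0 h and 0.643 and 0.665 UMIs at 6 h.

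Summed genes of most cell types that the gate should lack were below the level of the other C1q+ cells at 0 h. At 0 h the 8 mural genes summed to 26.8 CPM in cycling and 396 CPM in other C1q+ cells, the 8 endothelial genes to 81.3 and 222 CPM, the 8 cardiomyocyte genes to 67.4 and 143 CPM, and the B cell genes to 13.9 and 35.4 CPM. The fibroblast genes summed to 222 and 237 CPM at 0 h and to 202 and 177 CPM at 6 h. Per cell their median was 2.21 and 1.97 of 10000 UMIs at 0 h (2.44 and 1.76 in cells of 5000 to 20000 UMIs, 52 of 82 above) and 2.14 and 1.44 at 6 h (10 of 14 above). The exceptions were the T cell genes, at 17.9 and 13.7 CPM, and the erythroid genes, at 1950 and 346 CPM, of which most came from the 1 cell with Hbb-bs. At 6 h the mural, endothelial, cardiomyocyte and B cell sums were 24.8 and 22.7, 86.7 and 162, 33.0 and 32.5, and 12.4 and 12.9 CPM. Their part in the results above was not tested.

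The C1q- cells gave values but no pattern. At 0 h 73 of 224 genes (32.6%) were past 2-fold between the 1 cycling cell and the other C1q- cells, with 7.14% higher and 25.4% lower, and at 6 h 29 of 338 (8.58%) between the 2 cells and the others, with 2.96% higher and 5.62% lower. Lower in both were Il1b, Chil3, Plac8, Fcer1g and Nr4a1, and no gene was higher in both. Plac8 was at 34.3 CPM (1 UMI) in the cell at 0 h and 7605 CPM in the others, and at 757 and 2115 CPM at 6 h. Between C1q+ and C1q- cycling cells, 72 of 227 genes (31.7%) at 0 h were past 2-fold, 26.4% higher in C1q+ cells and 5.29% lower. At 6 h 76 of 326 (23.3%) were, 14.1% higher and 9.2% lower. Pf4, with 2521 UMIs in 94 C1q+ cells and 1 in the C1q- cell at 0 h and 1242 and 0 at 6 h, led the 15 genes higher in C1q+ cells in both libraries, and the actin-binding gene Tmsb10 was the 1 gene lower in both. From 0 h to 6 h 93 of 250 genes (37.2%) were past 2-fold in the C1q- cells, 23.2% higher at 6 h and 14% lower, which compares 2 cells with 1. In the other C1q- cells 1656 of 7149 (23.2%) were, 9.69% higher and 13.5% lower. Cxcl3 and Thbs1, with 406 and 271 UMIs, were in the second of the cells at 6 h, the one called on Top2a alone.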

How the data were processed

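Single-cell RNA sequencing of left ventricular cells was done with a 10× Chromium 3′ kit on a NovaSeq6000. UMI counts per gene and barcode, which are not normalized, were deposited by the authors as 1 matrix per condition (27998 genes), made with Cell Ranger on mm10. The matrix headers name Cell Ranger 3.1.0. The study's limit of 2500 genes per cell was an alternative here. Doublets were not called. 1 gene named by the rule is not reported here.

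UMIs were summed over the cells of a group and divided by the group total (CPM). Ratios carry exact conditional binomial intervals and shares exact Clopper-Pearson intervals, at 95%. A sum of 0 was set to 3 UMIs for a bound. Genes with 20 expected UMIs in the smaller group were counted, without the genes of the rule. Lists name genes with at least 20 UMIs. The 10 genes with the largest ratio past 2-fold in both libraries, or in both C1q classes, were named for each direction, beside list members and 10 genes of the study. Cells were thinned to 2000 UMIs for shares by marker. Cells, lists and rules were chosen with earlier results of these data known. Ratios were run on simulated counts drawn from 1 pooled profile. These had no variation between cells, so that run covers counting error only. Python 3.11.15, numpy 2.4.6, scipy 1.17.1, pandas 2.3.3 and matplotlib 3.10.9 were used.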

Additional observations from a re-analysis of the deposited data

How the results depend on the processing

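No paired analysis was possible because each condition is 1 library whose cells carry no sample, and no replicate could be left out for the same reason. The share of cycling C1q+ cells was 3.98% at 0 h and 2.59% at 6 h with 2 UMIs as the threshold, 2.23% at 0 h with 8 UMIs, 0.721% and 0.673% with at most 2500 genes, and 1.64% at 0 h with 5 other mitotic genes. The C1q- share was 2.32% at 6 h with 2 UMIs, and 0% in both libraries with at most 2500 genes. C1q+ cells were then 50.9% of cycling cells at 6 h with 2 UMIs and 100% in both libraries with at most 2500 genes, where 0% of the 3 cells at 6 h were on the S side. Limits on mitochondrial UMIs, C1q and lymphocyte genes moved no share beyond its interval.

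Counts of genes past 2-fold followed the filter. In cycling over other C1q+ cells they were 1056 with 5 expected UMIs, 134 with 50 and 80 with at most 2500 genes at 0 h, and 642, 60 and 41 at 6 h. In C1q+ cells at 6 h over 0 h they were 1453, 178 and 36. In C1q- cells they were 378 and 24 at 0 h, 165 and 14 at 6 h, and 427 and 27 between libraries with 5 and 50 expected UMIs. Between C1q classes they were 330 and 28 at 0 h and 383 and 26 at 6 h. In cells of 5000 to 20000 UMIs, added after the data were seen, they were 91 at 6 h over other C1q+ cells, 198 between libraries, 18 in C1q- cells and 25 between classes at 6 h. There, 57 of 99 summed lists moved beyond their intervals and 16 changed sign, 1 of them from past 2-fold, the classical monocyte list at 0 h (log2 ratio -0.70). With equal weights per cell, 79 of 244 ratios of named genes moved beyond their intervals and 0 changed sign from past 2-fold. Without the cells with Saa3 and Fn1, also added after the data were seen, genes past 2-fold were 292 at 0 h and 106 at 6 h over other C1q+ cells and 326 between libraries, 10 of 99 lists changed sign, and 88 of 241 ratios of named genes moved beyond their intervals. Named genes that changed sign from past 2-fold were Serpinb2 over other cells (log2 ratio -0.72 at 0 h and -0.43 at 6 h) and Saa3 (-2.55 at 6 h over other cells and -0.11 between libraries). The 2500-gene limit and the removal of the deepest 5% of cells were not run in C1q- groups, which then hold too few cycling cells.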
